A study of Mus musculus with 12 samples.

Results

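Matrix metalloproteinases (MMPs) and their tissue inhibitors (TIMPs) were followed through mouse colon tumors and small intestinal crypts as a family of 10 genes. The members were the proteases *Mmp2*, *Mmp3*, *Mmp9*, *Mmp10*, *Mmp11*, *Mmp13* and *Mmp14* and the inhibitors *Timp1*, *Timp2* and *Timp3*, picked by gene name from the expression table of each tissue. They are 10 of 54532 genes in each table, and each has a single row. *Mmp7*, a metalloproteinase that Paneth cells store in their granules, was left out by the same rule.

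The study removed ieCtnnb1, an enhancer that drives *Ctnnb1* in intestinal epithelium, and asked what this does to crypts and to tumors set off by an *Apc* mutation. Bulk RNA-seq gave 12 libraries in 4 groups of 3. Control tumors were colon tumors of the genotype APCmin/+, which carries 1 truncated *Apc* allele, and knockout tumors came from APCmin/+;ieCtnnb1KO mice, so that all 6 tumors shared the *Apc* mutation. Control crypts were small intestine crypts of wild type mice and knockout crypts were those of ieCtnnb1KO mice, with no *Apc* mutation in their labels. All mice were labelled adult and without treatment, and the study describes its mice as having a C57BL/6 background. The enhancer was deleted by genome editing of the mouse line and not by a Cre in a chosen cell type, so stromal and immune cells of the knockout tumors carried the deletion as well. The labels name no animal for a library, while the study describes 3 mice in each group, those with tumors being 5 months old. The p-values measure the spread between these libraries.

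MMPs are zinc endopeptidases that are made as inactive precursors and, once a propeptide is removed, cut collagens, laminins, proteoglycans and many cell-surface proteins. TIMPs bind the active enzymes tightly and so set how much of the activity is free. In the intestine most of these proteases come from fibroblasts, macrophages, neutrophils and endothelial cells, some come from epithelium at wounds and in tumors, and the family is known for its part in the remodelling of tumor stroma. mRNA levels say nothing about how much of a precursor was activated.

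The labels were first compared with marker genes. *Ctnnb1*, which encodes beta-catenin, had an FPKM (fragments scaled by gene length and library size) of 299, 363 and 358 in control tumors and 279, 248 and 250 in knockout tumors. In crypts it was 121, 134 and 123 in controls and 102, 104 and 105 in knockouts. All 3 knockout libraries were below all 3 controls in both tissues, as the genotype labels have it. *Apc* overlapped between the groups of tumors, at 11.2, 12.4 and 12.6 in controls and 10.1, 12.8 and 9.06 in knockouts. *Hoxb13*, a gene of the distal colon, lay between 70.1 and 128 in the 6 tumors and was 0 in the 6 crypts, while 7 Paneth cell markers summed to between 19440 and 55274 FPKM in crypts and between 1588 and 4264 in tumors. *Xist*, transcribed from the inactive X chromosome of females, was 114 in control tumor replicate 3 and 61.4 in knockout tumor replicate 3, and these libraries had a *Ddx3y* (Y-linked) FPKM of 0 and 0.0247. The other 4 tumors had a *Ddx3y* FPKM between 8.65 and 12.9 and the 6 crypts between 8.32 and 9.86, so each group of tumors held 1 female and 2 male libraries and both groups of crypts were male.

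Depth was similar in all libraries. Between 14648696 and 16156712 fragments lay on genes in the tumors and between 14457896 and 16074777 in the crypts. In tumors the least covered value of any member rested on 154 fragments (*Mmp3*, control replicate 3) and the best covered on 10512 (*Mmp13*, knockout replicate 3). Counting error was small beside the spread of *Mmp3*, *Mmp10* and *Mmp13* among knockout tumors, but not beside every gap between single tumors. The lowest knockout and the highest control of *Mmp2* rested on 2580 and 2618 fragments. Those of *Timp3* rested on 1747 and 1710 fragments, and counting error alone could close gaps as narrow as these.

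All 10 members passed the filter in tumors, a mean FPKM of at least 0.5 over the 6 libraries. None of them differed between knockout and control tumors by limma after Benjamini-Hochberg adjustment over the 16743 genes tested, and the share of all genes that did was 0%. The study itself, with DESeq2 on counts, reported genes lower and genes higher in knockout tumors, with Wnt pathway genes among the lower ones. The lowest adjusted p among the members was 0.320, for *Mmp2*, and the lowest of any gene was 0.269. At an unadjusted p under 0.05, 1 member was higher in knockout tumors (*Mmp2*) against 8.46% of all genes, and 0 members were lower against 6% of all genes. Groups did not overlap for 3 members. *Mmp2* and *Timp3* were higher in every knockout tumor, where 11.4% of all genes were, and *Mmp14* was lower in every knockout tumor, where 10.6% of all genes were. These counts for 10 genes lie near the shares of all genes. The median log2 fold change of the members was 0.14 and that of all tested genes 0.01, with 8 of 10 members and 8586 of 16743 genes above 0. These members include *Mmp13* at 0.00 and *Mmp10* at 0.05, and with quantile normalization 5 of 10 were above 0. The member median was 0.39 without knockout replicate 2, and 0.05 with quantile normalization or without replicate 3 of both groups. With 3 libraries on each side, 0.1 is the smallest p that exact permutation of the labels allows, and the 3 members without overlap had that value.

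The number of members at an unadjusted p under 0.05 depended on scaling, on the filter and on single libraries. It was 2 with the libraries rescaled to the same total or without the 50 highest genes (*Mmp2* higher, *Mmp14* lower), 1 with quantile normalization (*Mmp14* lower, without *Mmp2*) and 2 with no filter (*Mmp2*, *Timp3*). It was 2 without control replicate 1 (*Mmp2*, *Mmp9*), 0 without control replicate 2 and 0 without control replicate 3. It was 2 without knockout replicate 1 (*Mmp2*, *Mmp9*), 4 without knockout replicate 2 (*Mmp3*, *Mmp13*, *Timp1*, *Timp3*) and 2 without knockout replicate 3 (*Mmp2*, *Mmp11*). The adjusted p of every member stayed above 0.05 in each of these fits.

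**Figure D1:**
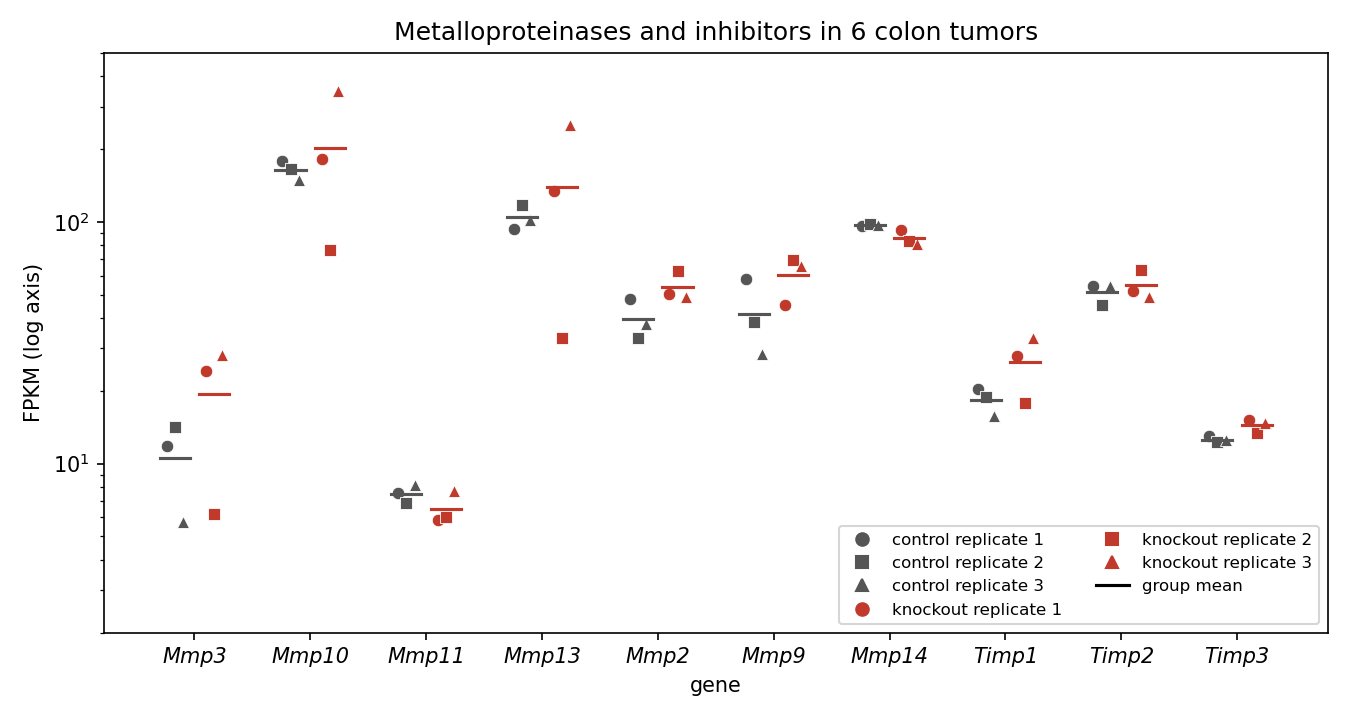
FPKM on a log axis of the 10 genes in the 6 colon tumors, controls in grey and knockouts in red, with 1 symbol for each replicate number and a line at each group mean. *Mmp3*, *Mmp10* and *Mmp13* spread widely among the 3 knockout tumors, while *Mmp14* and *Timp3* lie close together in both groups.

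The stromelysins *Mmp3* and *Mmp10* and the collagenase *Mmp13* lie within 1 cluster of metalloproteinase genes on chromosome 9, and their promoters share a sequence feature that the rule of choice did not use. In the RefSeq windows of GRCm38.p6, from 250 bases before to 50 bases after the RefSeq start of a gene, the AP-1 motif TGANTCA (a palindrome, so that a match lies on both strands) was found in all 3 genes, in each case shortly before the start. It begins 35 bases before the start of *Mmp13* (chr9:7272264-7272563), 46 before that of *Mmp3* (chr9:7445572-7445871) and 63 before that of *Mmp10* (chr9:7502092-7502391). AP-1 motifs of this kind are a textbook feature of inducible metalloproteinase promoters. *Timp1*, which had the same order among the knockout tumors as these 3 genes, has no match to TGANTCA. Its window holds the similar letters TGAGTAA, which this search could not find. The lack of a match therefore does not mean that *Timp1* lacks an AP-1 site. The windows shown are those of the members that hold the motif. They are printed 5′ to 3′, with the AP-1 letters in capitals:
Mmp13: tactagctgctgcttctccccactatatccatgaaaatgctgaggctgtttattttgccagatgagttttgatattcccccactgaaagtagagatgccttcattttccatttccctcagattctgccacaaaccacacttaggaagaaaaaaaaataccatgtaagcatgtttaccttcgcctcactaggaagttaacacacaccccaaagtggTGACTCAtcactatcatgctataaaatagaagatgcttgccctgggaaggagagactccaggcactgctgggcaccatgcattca
Mmp3: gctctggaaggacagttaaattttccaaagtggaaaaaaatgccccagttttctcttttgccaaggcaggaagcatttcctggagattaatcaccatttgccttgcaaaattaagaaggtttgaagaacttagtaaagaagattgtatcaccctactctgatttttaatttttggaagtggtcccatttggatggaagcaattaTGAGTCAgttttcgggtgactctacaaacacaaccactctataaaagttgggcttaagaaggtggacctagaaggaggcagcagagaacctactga
Mmp10: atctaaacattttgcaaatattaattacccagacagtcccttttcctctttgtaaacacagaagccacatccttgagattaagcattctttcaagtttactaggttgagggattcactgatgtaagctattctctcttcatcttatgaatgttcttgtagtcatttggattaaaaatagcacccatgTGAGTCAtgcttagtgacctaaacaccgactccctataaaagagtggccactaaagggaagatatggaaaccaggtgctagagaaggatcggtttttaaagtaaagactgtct

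Of 32851 promoter windows of the same length, 7.81% hold TGANTCA. Among the members, 8 had a window in the table. *Mmp11*, *Mmp14*, *Timp1*, *Timp2* and *Timp3* had no match to it in theirs, and *Mmp2* and *Mmp9* had no window. The TCF motif CTTTGAT, searched on both strands, was in 3.73% of all windows and in none of the 8. Of the genes of the same cluster outside the members, *Mmp1a*, *Mmp1b*, *Mmp20* and 1 of 2 windows each of *Mmp12* and *Mmp7* held TGANTCA, and *Mmp8* and *Mmp27* did not. A match describes the letters of a window only.

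*Mmp3* cleaves proteoglycans, laminin and fibronectin and activates the precursors of other MMPs (ENSMUSG00000043613; chromosome 9, 7445822 to 7455975, plus strand). Its FPKM was 11.8, 14.2 and 5.72 in control tumors and 24.2, 6.20 and 28.1 in knockout tumors. Knockout replicates 1 and 3 were above every control, and knockout replicate 2 was among the controls, close to the lowest of them. The log2 fold change on the scale of FPKM + 0.5 was 0.69 (SE 0.597, adjusted p = 0.599). With each library left out it ran from 0.31 (without knockout replicate 3) to 1.35 (without knockout replicate 2, adjusted p = 0.291), and without replicate 3 of both groups it was -0.07.

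*Mmp10*, a stromelysin with similar substrates that is often made by epithelial cells (ENSMUSG00000047562; chromosome 9, 7502352 to 7510240, plus strand), was the most abundant member per length in tumors. Its FPKM was 179, 166 and 148 in controls and 182, 76.9 and 347 in knockouts. The controls lay close together, knockout replicate 1 was level with the highest of them, and replicates 2 and 3 lay far below and far above all controls. This gave a log2 fold change of 0.05 (SE 0.496, adjusted p = 0.974). Its sign turned when single libraries were left out, with -0.02 without control replicate 3, -0.01 without knockout replicate 1 and -0.47 without knockout replicate 3.

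*Mmp13*, the main collagenase of fibrillar collagen in rodents (ENSMUSG00000050578; chromosome 9, 7272514 to 7283331, plus strand), went the same way. Its FPKM was 93.8, 118 and 102 in control tumors and 135, 33.1 and 252 in knockout tumors. Knockout replicate 3 was the highest of the 6 tumors and knockout replicate 2 the lowest, as for *Mmp10*. The mean FPKM was 105 ± 12.1 (SD, n = 3) in controls and 140 ± 110 (SD, n = 3) in knockouts. On the log2 scale the groups had the same mean, with a fold change of 0.00 (SE 0.674, adjusted p = 0.9997). It was 0.82 without knockout replicate 2, where the unadjusted p fell under 0.05 and the adjusted p was 0.300, and -0.64 without knockout replicate 3.

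*Mmp11*, a stromelysin that furin-like enzymes activate inside the cell and that fibroblasts around carcinomas make (ENSMUSG00000000901; chromosome 10, 75923222 to 75936496, minus strand), had a narrow range. Its FPKM was 7.54, 6.85 and 8.18 in controls and 5.84, 6.04 and 7.69 in knockouts. Knockout replicates 1 and 2 were below every control and replicate 3 was among them. *Mmp11* had a log2 fold change of -0.20 (SE 0.132, adjusted p = 0.499). With each library left out it ran from -0.31 (without knockout replicate 3) to -0.13 (without knockout replicate 1). *Mmp11* shares 3367 bases with *Chchd10* on the opposite strand, which had a mean FPKM of 25.6 in tumors, and fragments of the shared stretch cannot be told apart unless counting used the strand.

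The spread among knockout tumors was wide for 3 members beside other genes. The highest knockout tumor exceeded the lowest 4.26 times for *Mmp3*, 4.48 times for *Mmp10* and 7.52 times for *Mmp13*, each as a ratio of FPKM + 0.5. Only 2.17%, 2.04% and 0.747% of the 16743 tested genes were as wide there, and the median gene had a ratio of 1.27. Among control tumors the ratios were 2.36 for *Mmp3*, 1.20 for *Mmp10* and 1.25 for *Mmp13*, beside a median of 1.23. *Mmp10* and *Mmp13* were thus as even as the median gene in controls and among the most uneven in knockouts. With 3 tumors in a group a difference in spread was not tested.

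**Figure D2:**
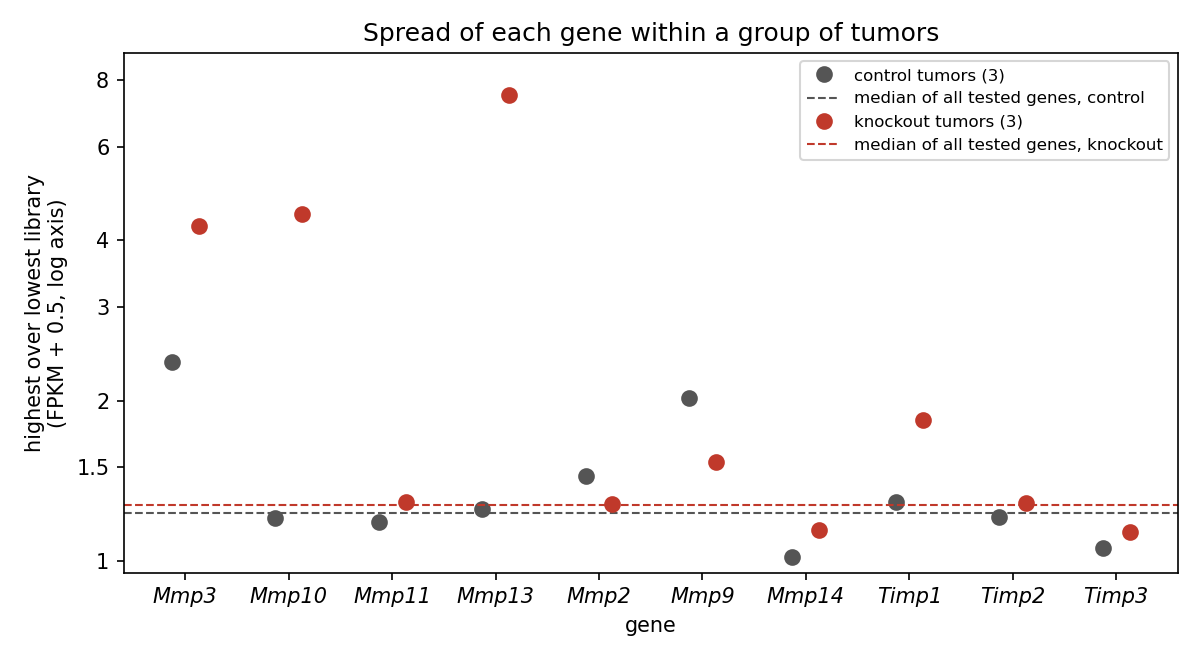
Ratio of the highest to the lowest library (FPKM + 0.5, log axis) of each gene among the 3 control tumors (grey) and the 3 knockout tumors (red), with dashed lines at the medians of all 16743 tested genes, 1.23 and 1.27. *Mmp13*, *Mmp10* and *Mmp3* reach 7.52, 4.48 and 4.26 among knockouts, and *Mmp14* and *Timp3* have the smallest ratios in both groups.

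Other genes of the chromosome 9 cluster did not follow the full order that *Mmp3*, *Mmp10* and *Mmp13* had among the knockout tumors. *Mmp12*, the macrophage elastase, had an FPKM of 7.90, 7.34 and 9.76 in controls and 7.95, 5.57 and 7.77 in knockouts. *Mmp8*, the collagenase of neutrophils, was 1.55, 5.95 and 4.69 in controls and 2.74, 0.951 and 1.27 in knockouts. Both genes were lowest of the 6 tumors in knockout replicate 2, as were *Mmp10* and *Mmp13*. Among the knockouts both were highest in replicate 1 and not in replicate 3. *Mmp7* was 415, 322 and 286 in controls and 422, 533 and 287 in knockouts, so the tumor that was lowest for *Mmp10* and *Mmp13* was the highest for *Mmp7*. *Mmp1a*, *Mmp1b*, *Mmp20* and *Mmp27* were below the filter in tumors. These genes were picked for their place in the cluster once the values were known.

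*Mmp2*, the gelatinase that fibroblasts make steadily (ENSMUSG00000031740; chromosome 8, 92827291 to 92853420, plus strand), measured 48.0, 33.1 and 37.7 in control tumors and 50.1, 62.8 and 49.1 in knockout tumors. Every knockout was above every control, but the lowest knockout and the highest control were only 49.1 and 48.0. The mean was 39.6 ± 7.61 (SD, n = 3) in controls and 54.0 ± 7.66 (SD, n = 3) in knockouts. The log2 fold change was 0.45 (SE 0.164, adjusted p = 0.320). With the libraries rescaled to the same total of fragments, the highest control was 48.6 and the lowest knockout 47.4, and the groups overlapped.

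*Mmp9*, the gelatinase of neutrophils and macrophages (ENSMUSG00000017737; chromosome 2, 164940780 to 164955850, plus strand), measured 57.8, 38.7 and 28.3 in controls and 45.2, 69.6 and 65.8 in knockouts. Knockout replicates 2 and 3 were above all controls, while control replicate 1 exceeded knockout replicate 1. The log2 fold change was 0.56 (SE 0.281, adjusted p = 0.399). With each library left out it ran from 0.32 (without control replicate 3) to 0.83 (without control replicate 1). Without replicate 3 of both groups it was 0.24.

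*Mmp14* encodes a protease anchored in the cell membrane that, held together with TIMP2, activates the precursor of MMP2 (ENSMUSG00000000957; chromosome 14, 54431612 to 54445364, plus strand). Its FPKM was 96.4, 97.9 and 96.7 in control tumors and 92.7, 83.5 and 81.1 in knockout tumors. The 3 controls were almost equal, and all 3 knockouts were below them. Its log2 fold change was -0.18 (SE 0.0870, adjusted p = 0.389), and -0.34 with quantile normalization (adjusted p = 0.298). The highest control exceeded the lowest 1.02 times as FPKM + 0.5, and 99.4% of tested genes were at least as uneven among the controls. *Mmp14* and *Mmp2* thus lay on opposite sides of their controls, with neither difference past the adjusted threshold.

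*Timp1*, an inhibitor that binds the precursor of MMP9 and acts poorly on MMP14 (ENSMUSG00000001131; chromosome X, 20870166 to 20874735, plus strand), measured 20.5, 18.9 and 15.7 in control tumors and 28.0, 17.8 and 33.1 in knockout tumors. It had the order of *Mmp3* among knockouts, with replicates 1 and 3 above all controls and replicate 2 within them. The log2 fold change was 0.47 (SE 0.231, adjusted p = 0.396). With each library left out it ran from 0.28 (without knockout replicate 3) to 0.72 (without knockout replicate 2, adjusted p = 0.291), and without replicate 3 of both groups it was 0.18. The female library was the highest of the knockouts and the lowest of the controls for this X-linked gene.

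*Timp2*, the inhibitor that docks the precursor of MMP2 on MMP14 (ENSMUSG00000017466; chromosome 11, 118301069 to 118355740, minus strand), measured 54.3, 45.1 and 54.6 in controls and 52.0, 63.1 and 49.0 in knockouts. The groups overlapped, with knockout replicate 2 the highest of the 6. The log2 fold change was 0.09 (SE 0.129, adjusted p = 0.770). *Timp3*, an inhibitor held in the extracellular matrix that also blocks ADAM17 (ENSMUSG00000020044; chromosome 10, 86300372 to 86349506, plus strand), measured 13.0, 12.3 and 12.5 in controls and 15.2, 13.4 and 14.8 in knockouts. All 3 knockouts were above all 3 controls, by a small margin, which gave a log2 fold change of 0.19 (SE 0.0845, adjusted p = 0.366). The genes that overlap *Timp1*, *Timp2* and *Timp3* in the table (*Syn1*, *Cep295nl* and *Syn3*) had mean FPKM of 0.430, 0.231 and 0.209 in tumors.

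**Figure D3:**
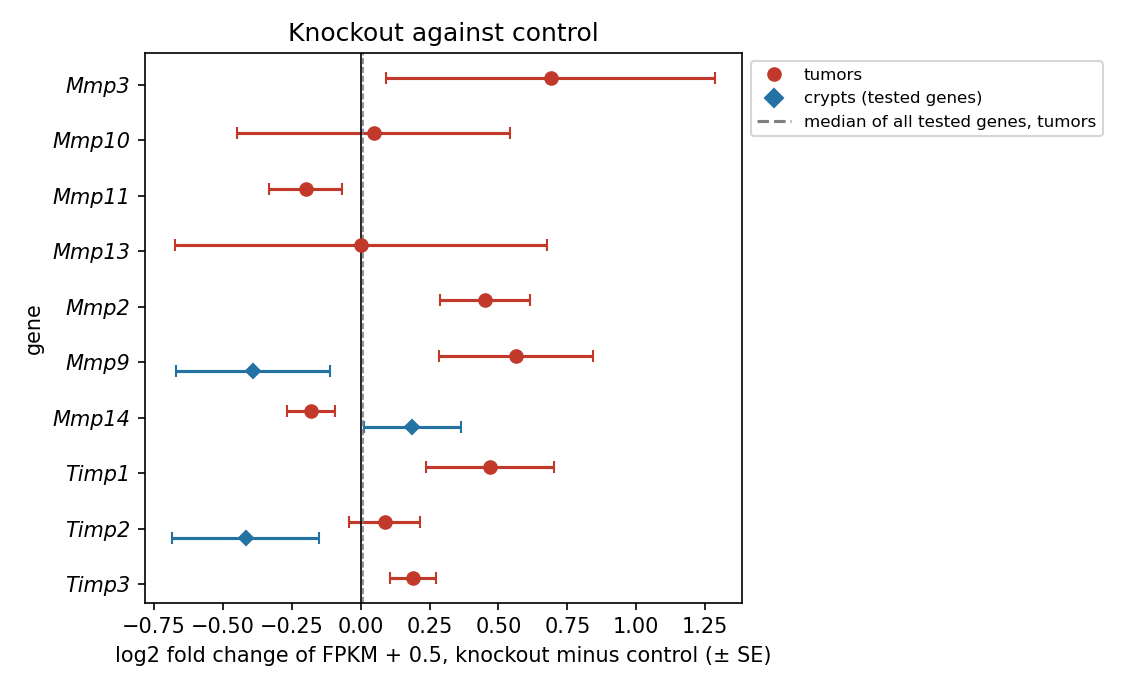
Log2 fold change of FPKM + 0.5, knockout minus control, with its SE from limma, in tumors (red circles) and, for the 3 members tested there, in crypts (blue diamonds); the dashed line is the median of all tested genes in tumors, 0.01. *Mmp3*, *Mmp10* and *Mmp13* have the widest errors, and the adjusted p was above 0.05 for every point.

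Set side by side per length, the order of the mean FPKM in control tumors was *Mmp10* (164), *Mmp13* (105), *Mmp14* (97.0), *Timp2* (51.3), *Mmp9* (41.6), *Mmp2* (39.6), *Timp1* (18.4), *Timp3* (12.6), *Mmp3* (10.6) and *Mmp11* (7.52). *Mmp13* and *Mmp14*, neighbours from *Timp2* to *Mmp2*, and those from *Timp3* to *Mmp11* overlapped in their single tumors. In knockout tumors *Mmp10* and *Mmp13* had the highest means, 202 and 140, but in knockout replicate 2 *Mmp14* (83.5) exceeded both *Mmp10* (76.9) and *Mmp13* (33.1).

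The 7 proteases summed to an FPKM of 494, 475 and 427 in control tumors and 535, 338 and 831 in knockout tumors. The controls were even, and the knockouts held both the lowest and the highest sum. *Mmp3*, *Mmp10* and *Mmp13* made up 57.6%, 62.8% and 60.0% of that sum in controls and 63.8%, 34.4% and 75.5% in knockouts. The knockout mean of the sum exceeded the control mean by 102, by 217 without knockout replicate 2, and by -28.8 without knockout replicate 3, so its direction rested on that tumor.

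The 3 inhibitors summed to 87.7, 76.3 and 82.8 in controls and 95.2, 94.2 and 96.9 in knockouts. The knockout sums were almost equal and all above the controls, although *Timp1* and *Timp2* each overlapped between the groups. This evenness came from opposite orders, since knockout replicate 2 had the lowest *Timp1* and the highest *Timp2* of the knockouts. The groups stayed apart with the libraries rescaled to the same total, at 77.6 to 88.9 in controls and 93.6 to 94.4 in knockouts. The ratio of summed proteases to summed inhibitors was 5.63, 6.22 and 5.16 in controls and 5.62, 3.59 and 8.57 in knockouts. No p-value is given for sums over the members, since the members were chosen with results known.

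**Figure D4:**
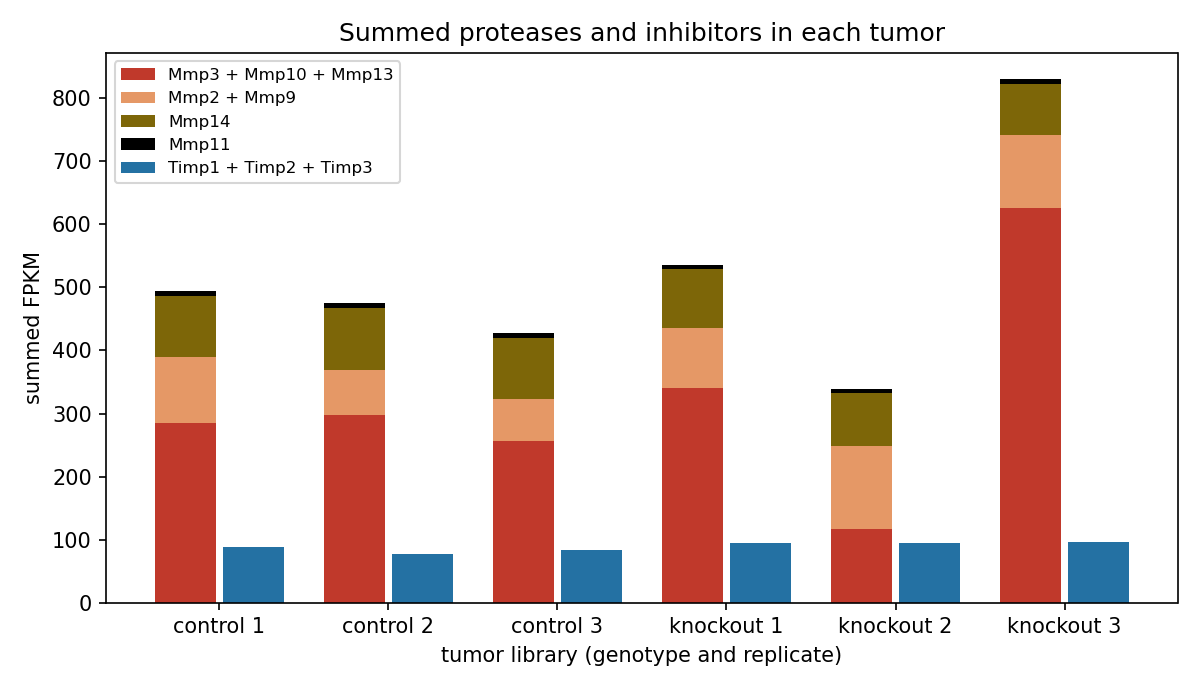
Summed FPKM in each of the 6 tumors, with the proteases stacked by class on the left and the 3 inhibitors on the right of each pair of bars. The summed inhibitors lie between 76.3 and 96.9, while the sum of *Mmp3*, *Mmp10* and *Mmp13* runs from 116 in knockout replicate 2 to 627 in knockout replicate 3.

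The members fell into different orders across the 6 tumors. *Mmp10* and *Mmp13* had a Pearson r of 0.97 (Spearman rho 0.83, n = 6) on the log2 scale, which was 0.33 without the 2 tumors farthest from the median of *Mmp10*, so it rested on knockout replicates 2 and 3. *Mmp3* and *Timp1* had an r of 0.93 (rho 0.94, n = 6), and 0.87 without the 2 tumors farthest from the median of *Mmp3*. *Mmp2* and *Mmp9* had an r of 0.80 (rho 0.77, n = 6), and 0.86 without the 2 farthest. *Mmp13* and *Timp2* ran opposite, with an r of -0.79 (rho -0.77, n = 6), and -0.46 without the 2 farthest. These values are descriptions of 45 pairs of members over tumors of both genotypes.

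Tested genes with the pattern most similar to that of a member over the 6 tumors were looked up, by Pearson r of log2(FPKM + 0.5). *Mmp10* was nearest to *Cdk4*, a cell cycle kinase gene (r 0.993, rho 0.943, n = 6, and 0.915 without the 2 tumors farthest from the median of the member), with 90.8, 89.7 and 83.7 in controls and 89.8, 72.6 and 106 in knockouts. It had the order of *Mmp10* among the knockouts on a much smaller scale.

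*Mmp2* was nearest to *Crtap* (r 0.999, rho 0.943, n = 6, and 0.995 without the 2 farthest), which encodes a protein of collagen prolyl hydroxylation, with an FPKM of 18.1, 13.4 and 15.0 in controls and 18.7, 21.9 and 18.0 in knockouts. *Timp1* was nearest to *Lamtor1* (r 0.996), *Mmp14* to *Spata13* (r 0.997), *Mmp3* to *Bod1* (r 0.993), *Mmp9* to *Mtfp1* (r 0.993), *Mmp11* to *Klhl8* (r 0.993), *Timp3* to *Ubl4a* (r 0.992) and *Timp2* to *Gm12396* (r 0.989), each over 6 tumors. With 6 points many genes come close. Between 22 (*Mmp11*) and 212 (*Timp1*) genes had an r of at least 0.95 with a member.

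In the plasminogen system, whose product plasmin activates several MMP precursors, 9 of 10 genes were tested. At an unadjusted p under 0.05, 3 were higher and 1 lower in knockout tumors, with 0 past adjustment and a median log2 fold change of 0.28. Over all tested genes 8.46% were higher and 6% lower by that measure, and the median was 0.01. These are the values to set beside each list below. Their balance turned with scaling, to 1075 genes higher and 1344 lower with the libraries rescaled to the same total. *S100a10* and *Plat* had the smallest p and are named for that. *S100a10*, which gathers plasminogen at the cell surface, was 148, 133 and 113 in controls and 179, 189 and 216 in knockouts (log2 fold change 0.57, adjusted p = 0.269). *Plat*, the tissue plasminogen activator, was 85.5, 77.6 and 82.3 in controls and 55.2, 34.4 and 58.5 in knockouts (log2 fold change -0.76, adjusted p = 0.270). The groups did not overlap for either gene.

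The order of the knockout tumors seen for *Mmp3*, *Mmp10*, *Mmp13* and *Timp1*, with replicate 2 lowest and replicate 3 highest, was then counted in the other lists. The order was taken from these 4 members, so their own count says nothing more. It held for 3866 (23.1%) of the 16743 tested genes, for 6 of 9 tested plasminogen genes and for 12 of 21 listed inducers. Of the plasminogen genes, *Plau*, the urokinase gene, was 37.3, 28.6 and 36.1 in controls and 45.6, 24.7 and 59.7 in knockouts, and its receptor *Plaur* 17.8, 16.7 and 20.1 in controls and 26.0, 14.4 and 28.5 in knockouts. Of the inducers, the cytokine gene *Il11* was 16.0, 13.0 and 14.7 in controls and 27.6, 8.37 and 57.5 in knockouts. *Plau*, *Plaur* and *Il11* were picked with their values in view. Among cell type markers the order held for 4 of 8 epithelial (*Krt8*, *Krt18*, *Krt19*, *Epcam*), 2 of 3 T cell, 2 of 8 neutrophil, 1 of 6 smooth muscle and 1 of 7 colon epithelial genes. It held for 0 of 9 fibroblast, 0 of 6 endothelial, 0 of 7 macrophage, 0 of 4 B and plasma cell, 0 of 7 Paneth cell and 0 of 3 stomach epithelial genes. Of the remaining protease lists it held for 0 of 8 other MMP and TIMP genes, 0 of 8 ADAM genes, 2 of 10 ADAMTS genes and 2 of 11 genes of activation and clearance.

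The listed inducers of MMP genes, cytokines and growth factors with the AP-1 and ETS factors that act below them, were all 21 tested. At an unadjusted p under 0.05, 1 was higher (*Jund*) and 0 lower, with a median log2 fold change of 0.07. *Jund*, *Tgfb1* and *Junb* had the smallest p. *Jund*, an AP-1 subunit, was 62.0, 65.1 and 62.1 in control tumors and 84.6, 82.5 and 95.9 in knockout tumors, without overlap (log2 fold change 0.47, adjusted p = 0.269). *Tgfb1* was 12.5, 10.2 and 10.5 in controls and 12.6, 12.3 and 13.9 in knockouts, and *Junb* 102, 81.9 and 93.9 in controls and 106, 99.5 and 133 in knockouts, both with overlap.

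Among the 12 listed genes of MMP activation, cell-surface control and clearance, 11 were tested, 2 were higher and 0 lower by an unadjusted p below 0.05, and the median log2 fold change was 0.20. The smallest p belonged to *Cav1*, *Itgb3* and *Bsg*. *Cav1*, the caveolin gene, was 8.36, 9.17 and 10.2 in controls and 11.0, 17.9 and 14.5 in knockouts (log2 fold change 0.60, adjusted p = 0.291). *Itgb3*, an integrin subunit that holds MMP2 at the cell surface, was 9.18, 8.33 and 6.83 in controls and 12.3, 9.36 and 14.8 in knockouts (log2 fold change 0.54, adjusted p = 0.308). *Bsg*, which encodes an inducer of MMPs on the cell surface, was 417, 347 and 350 in controls and 427, 431 and 534 in knockouts (log2 fold change 0.32, adjusted p = 0.385). All 3 genes, picked for their p, were higher in every knockout tumor, as were 11.4% of all tested genes. The lowest knockout and the highest control lay close for *Itgb3* (9.36 and 9.18) and *Bsg* (427 and 417).

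Of the 16 other MMP and TIMP genes on the list, 8 were tested in tumors, 1 was higher (*Mmp19*) and 0 lower by an unadjusted p below 0.05, with a median log2 fold change of 0.13. *Mmp19* was 2.45, 2.86 and 3.94 in controls and 4.19, 4.53 and 5.41 in knockouts, without overlap (log2 fold change 0.55, adjusted p = 0.302). *Mmp8* (log2 fold change -1.01, adjusted p = 0.388) and *Mmp28* (0.46, adjusted p = 0.509) came next and overlapped between the groups. *Mmp15*, a membrane-type protease, was the most abundant gene of the list, with a mean of 59.3 over the tumors.

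The related ADAM and ADAMTS proteases gave similar counts. Of 8 tested ADAM genes, 1 was higher (*Adam15*, log2 fold change 0.32, adjusted p = 0.324) and 0 lower by an unadjusted p below 0.05. *Adam10* (-0.19, adjusted p = 0.408) and *Adam9* (0.20, adjusted p = 0.442) followed. Of 10 tested ADAMTS genes, 2 were higher and 0 lower. *Adamts15* was 2.33, 1.99 and 1.76 in controls and 3.12, 4.10 and 4.07 in knockouts (log2 fold change 0.75, adjusted p = 0.269). *Adamts2*, a procollagen peptidase, was 3.26, 2.10 and 1.91 in controls and 3.28, 4.04 and 3.94 in knockouts (log2 fold change 0.56, adjusted p = 0.311). Neither overlapped between groups, although the highest control and the lowest knockout of *Adamts2* rested on 493 fragments each, so that its separation hangs on the scaling. *Adamts10* (0.37, adjusted p = 0.416) overlapped. The medians were 0.09 for the ADAM and 0.17 for the ADAMTS genes.

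Since tumors were taken whole, markers of the cells that can make MMPs were summed in each library. In such bulk samples, fewer cells of a type and less RNA per cell cannot be told apart. The 10 fibroblast markers summed to an FPKM of 389, 248 and 237 in control tumors and 387, 505 and 405 in knockout tumors, with *Col1a1* the most abundant and none at 0 in all libraries. Of 9 tested, 5 were higher (*Col1a1*, *Col3a1*, *Dcn*, *Pdgfra*, *Thy1*) and 0 lower by an unadjusted p below 0.05, with a median log2 fold change of 0.46, beside 8.46% higher, 6% lower and a median of 0.01 over all tested genes. *Mmp2* was also highest in knockout replicate 2 and had its highest control in replicate 1, like the fibroblast sum. The other ranks differed. The lowest control was replicate 2 for *Mmp2* (33.1) and replicate 3 for the sum (237). The lowest knockout was replicate 3 for *Mmp2* (49.1) and replicate 1 for the sum (387). The sum overlapped between the groups, with 389 in control replicate 1. What part fibroblast content had in the values of *Mmp2* was not tested.

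The 8 neutrophil markers summed to 244, 535 and 377 in controls and 263, 144 and 269 in knockouts, with *S100a9* the most abundant and none at 0. At an unadjusted p under 0.05, 3 were lower (*S100a8*, *S100a9*, *Cxcr2*) and 1 higher (*Ly6g*), with a median log2 fold change of -0.40. *S100a9* was 112, 260 and 180 in controls and 110, 51.8 and 111 in knockouts (log2 fold change -1.01, adjusted p = 0.335). *Mmp9* had its highest value in the tumor with the lowest neutrophil sum, knockout replicate 2, and *Mmp8* had its lowest value there. The 7 macrophage markers summed to 232, 157 and 197 in controls and 259, 329 and 218 in knockouts, with *C1qa* the most abundant and none at 0. Of these, 2 were higher (*C1qa*, *C1qc*) and 0 lower, and the sum was highest in knockout replicate 2, as for *Mmp9*. The other ranks differed. In knockout replicate 3 the sum was the lowest of the knockouts (218), while *Mmp9* was above all controls (65.8). The lowest control was replicate 2 for the sum (157) and replicate 3 for *Mmp9* (28.3), and the highest was replicate 1 for both. The part of either cell type in *Mmp9* was not tested.

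The 8 epithelial markers summed to 4182, 4208 and 3658 in controls and 4938, 4824 and 5089 in knockouts. Of these, 2 were higher (*Krt20*, *Vil1*) and 0 lower by an unadjusted p below 0.05, 7 of 8 were higher in every knockout tumor (11.4% of all tested genes were), and *Krt8* was the most abundant. Endothelial markers summed to 31.1, 29.5 and 26.2 in controls and 33.2, 33.9 and 33.5 in knockouts, with 1 of 6 higher (*Pecam1*) and *Cdh5* the most abundant. Smooth muscle markers summed to 151, 169 and 129 in controls and 180, 152 and 174 in knockouts, with 1 of 6 higher (*Acta2*, also the most abundant). No marker of these lists was at 0 in all tumors.

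Of the remaining lists, 0 of 3 tested T cell, 0 of 4 tested B and plasma cell and 0 of 7 Paneth cell markers passed an unadjusted p of 0.05 in tumors. For colon epithelium 2 of 7 were higher (*Car1*, *Muc2*), and for stomach epithelium 1 of 3 tested was lower (*Atp4a*). The Paneth cell sum was 1841, 1941 and 2148 in controls and 2775, 4264 and 1588 in knockouts, highest where *Mmp13* was lowest. The colon epithelial sum was 309, 301 and 298 in controls and 475, 737 and 569 in knockouts, without overlap, with *Muc2* the most abundant.

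**Figure D5:**
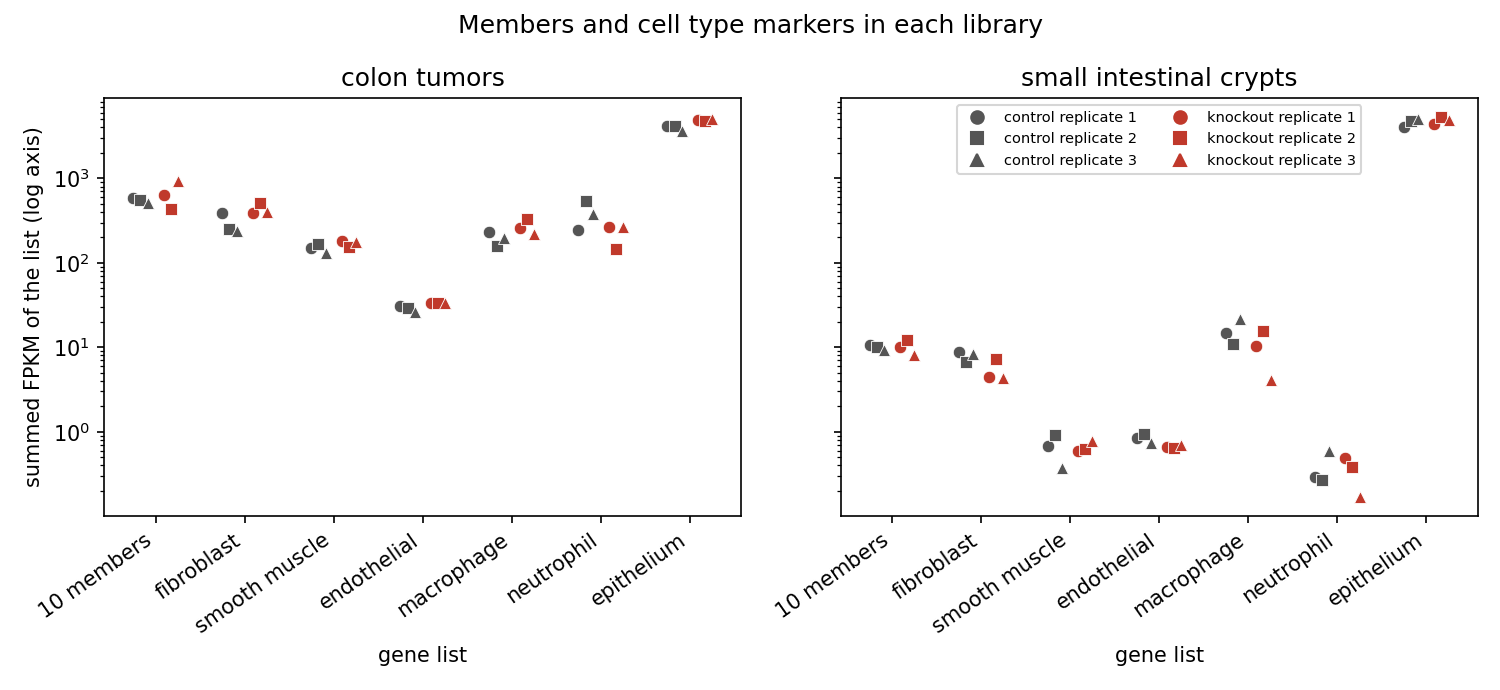
Summed FPKM on a log axis of the 10 members and of 6 lists of cell type markers in each tumor (left) and each crypt library (right), with controls in grey, knockouts in red and 1 symbol for each replicate number. Epithelial markers are similar in both tissues, while members, fibroblast, smooth muscle, endothelial, macrophage and neutrophil markers are far lower in crypts; the tables of the tissues were scaled separately.

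Crypts held little of the family. Only *Mmp9*, *Mmp14* and *Timp2* reached the mean FPKM of 0.5 there, so 7 of 10 members were not tested. The 10 members summed to 10.8, 10.1 and 9.27 in control crypts and 9.95, 12.2 and 8.07 in knockout crypts, most of it *Mmp14*. The sums in tumors were 582, 551 and 510 in controls and 630, 432 and 927 in knockouts. Crypts and tumors come from different parts of the gut and from tables scaled separately, so these levels stand side by side without a test.

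None of the 3 tested members differed between knockout and control crypts by limma after adjustment, as for 0% of 14176 genes. For crypts the study itself reported a lower expression of Wnt target genes by RNA-seq and RT-qPCR. At an unadjusted p under 0.05, 0 members were higher, where 3.48% of all genes were, and 0 lower, where 2.36% were. Without knockout replicate 2, 1 member (*Timp2*) was lower by that measure, with a log2 fold change of -0.67 and an adjusted p of 0.924. Groups did not overlap for 0 members, beside 6.79% of all genes higher and 5.15% lower in every knockout. *Mmp14* had an FPKM of 7.30, 7.29 and 5.24 in control crypts and 7.95, 8.50 and 6.27 in knockout crypts, and its log2 fold change was 0.19 (SE 0.176, adjusted p = 0.909). *Timp2* was 1.24, 1.64 and 1.88 in controls and 0.694, 1.72 and 0.914 in knockouts, with a log2 fold change of -0.42 (SE 0.268, adjusted p = 0.896). *Mmp9* was 0.876, 0.684 and 0.829 in controls and 0.469, 0.877 and 0.221 in knockouts, with a log2 fold change of -0.39 (SE 0.281, adjusted p = 0.896). With each library left out the fold changes in crypts ran from 0.04 to 0.31 for *Mmp14*, from -0.67 to -0.23 for *Timp2* and from -0.63 to -0.16 for *Mmp9*. The difference between the tissues was not tested.

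*Mmp3*, *Mmp10* and *Mmp13* were almost absent from crypts. *Mmp3* had 1 fragment in control crypt replicate 1 and 0 in the other 5 libraries, where 3 fragments, the most that a count of 0 allows, would be an FPKM between 0.0994 and 0.119. *Mmp10* was 0.113, 0.0760 and 0.0370 in control crypts and 0.107, 0 and 0 in knockout crypts, on at most 3 fragments. *Mmp13* was 0.266, 0.0734 and 0.549 in controls and 0.138, 0.313 and 0.133 in knockouts, on 3 to 23 fragments. On so few fragments no difference between the groups was detected. With no filter, limma gave *Mmp3*, *Mmp10* and *Mmp13* an unadjusted p of 0.505, 0.324 and 0.523. The other members below the filter were *Mmp2* (0.0388 to 0.230), *Mmp11* (0.0663 to 0.276), *Timp1* (0.0718 to 0.582) and *Timp3* (0.0440 to 0.266), given as the lowest and highest FPKM of the 6 crypt libraries.

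Markers of the cells around the epithelium differed from list to list in crypts. Smooth muscle markers summed to 0.681, 0.923 and 0.375 in controls and 0.592, 0.632 and 0.781 in knockouts, and neutrophil markers to 0.290, 0.266 and 0.595 in controls and 0.484, 0.387 and 0.171 in knockouts, with *S100a8* and *Ly6g* at 0 in all 6 libraries. Fibroblast markers summed to 8.76, 6.74 and 8.36 in controls and 4.41, 7.23 and 4.37 in knockouts, with *Dcn* the most abundant. Of 4 tested fibroblast markers 0 had a log2 fold change above 0, the median was -0.45, and 2 were lower in every knockout (5.15% of all tested genes were). Endothelial markers summed to 0.833, 0.938 and 0.740 in controls and 0.653, 0.645 and 0.702 in knockouts. Every knockout sum was below every control, at low levels with only *Pecam1* above the filter. Macrophage markers summed to 14.9, 10.8 and 21.4 in controls and 10.4, 15.6 and 4.07 in knockouts. The median log2 fold change of the 5 tested macrophage markers was -0.64, with 0 of 5 above 0. The sum of all 7 had the order of *Mmp9* among the knockouts, highest in replicate 2 and lowest in replicate 3. Among the control crypts the orders of the sum and of *Mmp9* differed. T cell markers reached 44.5 to 54.2, above those of all 6 tumors. B and plasma cell markers reached 62.9 to 90.8, below those of all 6 tumors, which lay between 512 and 1737. Stomach epithelial markers summed to 80.9, 66.8 and 13.8 in controls and 12.2, 16.3 and 9.85 in knockouts, with control replicates 1 and 2 apart from the rest, and 4 of 4 tested were lower at an unadjusted p under 0.05 (2.36% of all tested genes were). Of the other MMP and TIMP genes, *Mmp1a*, *Mmp1b*, *Mmp21*, *Mmp27* and *Timp4* were at 0 in all crypts, and *Mmp15* led with a mean of 6.96. Epithelial markers, in contrast, summed to between 4055 and 5327 in crypts. The part of the surrounding cells in the low levels of the members in crypts was not tested.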

How the data were processed

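RNA of crypt cells or tumor tissue was sequenced as paired-end reads. According to the methods, the authors aligned reads with Hisat2, counted them per gene with featureCounts and tested with DESeq2. The submitters' processing notes also name Cufflinks 2.2.1, cutadapt and the build mm10, without their roles; the use of strand and the computation of FPKM are not given in the sources used here. The authors deposited FPKM per gene and library in a separate table for each tissue, with gene lengths (in bases) and replicates not pooled. FPKM multiplied by gene length gave whole fragments (within 0.02) for 100% of values of up to 2000 fragments, from which depth was taken. Every pair of replicates differed by more than sampling noise. Gene positions in the table match GENCODE M21 (GRCm38) for all 10 members.

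Because the files hold FPKM and not counts, limma 3.58.1 in R 4.3.3 was used on log2(FPKM + 0.5), with a variance trend, for genes whose mean FPKM reached 0.5, and no covariate; fold changes on this scale understate those of low genes. P-values were adjusted by the Benjamini-Hochberg method over all genes tested in a tissue (threshold 0.05). Exact two-sided permutation tests, sums and correlations were made in Python 3.11.15 with scipy 1.17.1 and pandas 2.3.3. The fit was tested on simulated data. Sequences are from RefSeq, GRCm38.p6. The members and the gene lists (other MMPs and TIMPs, plasminogen system, activation and clearance, ADAM, ADAMTS, inducers, and 11 sets of cell type markers) were chosen with earlier results of these data known. Named genes were all members, *Ctnnb1* and *Apc*, up to 3 genes of a list with the smallest p in tumors where none passed adjustment, markers used to check a label, and for 9 members the gene most like it; the genes at an unadjusted p under 0.05, the most abundant gene and the genes at 0 of a list are named as such, and other genes outside this rule are said to be. Alternatives were other pseudocounts, filters and scalings, quantile normalization, no trend, robust moderation, voom on the recovered fragments, a replicate block, leaving out each library, and leaving out replicate 3 of both groups of tumors.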

Additional observations from a re-analysis of the deposited data

How the results depend on the processing

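No member had an adjusted p under 0.05 in either tissue under any alternative run, and each of *Mmp2*, *Mmp9*, *Mmp11*, *Mmp14*, *Timp1* and *Timp3* in tumors, and of *Mmp9*, *Mmp14* and *Timp2* in crypts, kept the sign of its log2 fold change. In tumors the sign turned for *Mmp10*, *Mmp13*, *Timp2* and *Mmp3*. *Mmp10* was -0.19 with quantile normalization, -0.54 without replicate 3 of both groups, and -0.47 to 0.61 with each library left out. *Mmp13* was -0.00200 with a pseudocount of 0.1, -0.0441 rescaled to the same total, -0.22 with quantile normalization, -0.0448 rescaled without the 50 highest genes, -0.00224 with voom, -0.65 without replicate 3 of both groups, and -0.64 to 0.82 with each library left out. *Timp2* was -0.0474 with quantile normalization, and -0.0191 to 0.162 with each library left out. *Mmp3* kept its sign with each library left out and was -0.0656 without replicate 3 of both groups, the female libraries. The causes were not tested.

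In tumors 2421 genes had an unadjusted p under 0.05 (1417 higher, 1004 lower) and 0 an adjusted p. Without a variance trend 1 gene had an adjusted p under 0.05, and without replicate 3 of both groups 1205 had an unadjusted p under 0.05, where fewer samples were fitted. Leaving out each library gave 1399 to 2755. The balance of directions turned with scaling, to 1075 higher and 1344 lower at the same total, 1116 and 1282 with quantile normalization, and 1072 and 1353 when the 50 highest genes were left out of the scaling, as these move the median of all genes from 0.01 to -0.03, -0.01 and -0.03. In crypts 829 genes (494 higher, 335 lower) became 1349 with no filter, where more genes are tested, and 462 to 1344 with each library left out; 0 to 3 genes had an adjusted p under 0.05 then, with 3 without control replicate 3. In crypts the split became 314 higher and 474 lower when the 50 highest genes were left out of the scaling. *Mmp2* lost its separation of groups in tumors under both rescalings, leaving 2 members. Sums of proteases and inhibitors were examined under alternatives chosen after seeing the data.

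Libraries with the same replicate number did not deviate together over all tested genes. The correlations were 0.0541, -0.0898 and 0.0525 in tumors and -0.0466, -0.122 and 0.0370 in crypts. With 3 libraries in a group this cannot tell whether the numbers pair them, and replicate 3 was the female library in both groups of tumors. With the replicate number as a block, 1882 genes in tumors and 732 in crypts had an unadjusted p under 0.05, 0 an adjusted p, and 0 members an unadjusted p under 0.05.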
